A study of Mus musculus with 6 samples.

Results

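The genes described are 37 that encode the core machinery of autophagy and a few lysosomal proteins, taken by symbol from a table of 49315 genes counted in mouse gastrocnemius muscle. All 37 symbols were present, and all 37 passed the filter on low counts that left 15847 genes for testing. They cover the initiation complex (5 genes), the class III PI3-kinase complex (4), membrane supply and the proteins that read its lipid (5), the conjugation machinery (9), the ATG8 family (5), cargo receptors (3), transcription factors (2), and lysosomal membrane proteins and proteases (4).

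Autophagy encloses cytoplasm or damaged organelles in a double membrane, the autophagosome, and delivers them to the lysosome for breakdown. A kinase complex starts the process, a lipid kinase complex marks the site, lipid carriers feed the growing membrane, and a ubiquitin-like conjugation system attaches ATG8 proteins (the LC3 and GABARAP proteins) to it, where they hold cargo receptors. In skeletal muscle the pathway clears mitochondria and proteins, and the amounts of its transcripts are commonly read alongside muscle wasting, but transcript levels are not a measure of the flow of material to the lysosome.

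The muscles came from male C57BL6J mice injected in the gastrocnemius at 5 months of age and killed 5 months later. The AAV9-HSA-CAAHR group (libraries 31, 34 and 36) received an adeno-associated virus encoding a constitutively active aryl hydrocarbon receptor (AHR), a transcription factor that normally needs a ligand, and the AAV9-HSA-GFP group (libraries 42, 43 and 46) received the same type of virus encoding a green fluorescent protein. In both, the human skeletal actin (HSA) promoter drove the gene, which restricts expression to muscle fibres. The CAAHR is a truncated mouse receptor without the ligand-binding domain, every muscle had been exposed to virus, and uninjected muscle was not analysed here. The labels number the libraries but do not state that each came from a separate mouse, so p-values measure the spread between these libraries.

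Libraries held 43432994 to 58825752 counts. Ahr, the delivered gene, was at 9.97, 22.8 and 17.3 CPM (counts relative to the library total, with TMM scaling) in CAAHR libraries 31, 34 and 36, and at 1.87 to 2.55 CPM in the GFP libraries, without separating delivered from endogenous transcripts. The libraries also differed in makeup: 9 slow fibre genes summed to 2783, 649 and 2518 CPM in CAAHR libraries 31, 34 and 36 and to 228, 333 and 461 CPM in the GFP libraries, so that library 34 stood nearer to the GFP libraries than the other CAAHR libraries did. Summed CPM of 11 macrophage genes was 27.9 to 47.5 in the CAAHR group and 58.1 to 129.6 in the GFP group, and 10 fast fibre genes summed to 143850 to 198120 and 200890 to 207550 CPM. The fast fibre genes did not move as a class, since 8 of the 10 had negative log2 fold changes and 2 positive. Of the 10, 2 were called lower. The positive values were those of Myh1 (0.997) and Myh2 (1.38), which were not called and overlapped between groups. Of the tested markers of other cell types, 4 of 5 for neutrophils (median log2 fold change -2.09) and 2 of 6 for lymphocytes (-2.09) were called lower. The counts were 1 of 10 for macrophages (-1.21), 1 of 5 for adipocytes (-2.0) and 0 of 5 for Schwann cells (-0.46). No endothelial marker (0 of 5, median 0.10) or fibroblast marker (0 of 5, median -0.17) was called in either direction. Of all tested genes, 4.57% were called lower. The part of these cells in the results was not tested. In bulk muscle, fewer cells of a type and less RNA per cell cannot be told apart. All these differences are relative to GFP muscles. By quantitative PCR, the paper reports that selected immune genes were not lower in CAAHR muscles than in mice given no virus. It concludes that the GFP virus promotes a local immune response.

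Promoter sequence is shown for 3 members because AHR and TFEB, the regulator of lysosomal genes, each bind a short known core, and these 3 differ in which core they hold. They are Gabarapl1, the member with the largest difference between the groups, Atg2a, a called member, and Lamp1, a lysosomal gene that did not pass the test. The sequences were read from the RefSeq promoter table (GRCm38.p6), on the strand of the gene and up to the first annotated exon. Capitals mark GCGTG (the AHR core), CACGTG (the E-box bound by TFEB) and TGACNNNGC (the antioxidant element), searched on both strands.
Gabarapl1, chr6:129532942-129533159, plus strand: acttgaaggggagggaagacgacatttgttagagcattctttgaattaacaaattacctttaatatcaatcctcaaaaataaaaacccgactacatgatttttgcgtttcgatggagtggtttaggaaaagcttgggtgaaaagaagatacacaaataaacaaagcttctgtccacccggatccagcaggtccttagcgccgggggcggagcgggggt
Atg2a, chr19:6241418-6241667, plus strand: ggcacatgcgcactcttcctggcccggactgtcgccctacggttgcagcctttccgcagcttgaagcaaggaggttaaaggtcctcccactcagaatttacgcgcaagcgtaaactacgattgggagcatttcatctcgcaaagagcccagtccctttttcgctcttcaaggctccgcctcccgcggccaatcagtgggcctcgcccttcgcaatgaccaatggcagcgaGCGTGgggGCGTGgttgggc
Lamp1, chr8:13158911-13159160, plus strand: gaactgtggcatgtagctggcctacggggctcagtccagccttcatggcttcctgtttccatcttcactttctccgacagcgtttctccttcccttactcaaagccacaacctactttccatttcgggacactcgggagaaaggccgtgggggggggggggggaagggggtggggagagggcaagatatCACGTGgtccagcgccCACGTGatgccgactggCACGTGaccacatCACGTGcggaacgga

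The Gabarapl1 stretch held none of the 3 motifs. The 250 bases before the Atg2a start held GCGTG at 20 and 12 bases before the start, and those of Lamp1 held CACGTG at 61, 45, 28 and 15 bases before it. Among the 31 members with a promoter in the table, 19 had GCGTG, and counted by promoter this was 58.3% of 36 member promoters against 28.2% of all 32851 promoters. CACGTG was in 16.7% of member promoters and 6.02% of all promoters, its longer form TCACGTGA, which contains it, in 5.56% and 0.785%, and TGACNNNGC in 8.33% and 10.2%. Member promoters were also richer in G and C, with a median of 59.6% against 52.4%. Promoters of 92 further pathway genes, from lists described below, had a median G and C content close to that of the members. Among these 112 promoters, GCGTG was in 44.6%, CACGTG in 20.5%, TCACGTGA in 7.14% and TGACNNNGC in 20.5%. The shares of CACGTG and TCACGTGA were therefore not particular to the members, while the share of GCGTG was higher in the members. Of the 5 members called, 3 (Atg13, Atg2a and Atg9a) had GCGTG, beside 19 of all 31 members with a promoter. None of the 5 had CACGTG, beside 6 of the 31. These matches are descriptions of letters in a window, not of binding.

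The comparison of CAAHR with GFP muscles asked whether autophagy and lysosome transcripts differed when the receptor was active in muscle fibres. Of the 37 members, 5 rose and none fell at an adjusted p under 0.05 (edgeR, quasi-likelihood F test, with the Benjamini-Hochberg adjustment run over every tested gene), which is 13.5% of the members beside 7.6% of all tested genes (481 genes or 3.04% higher and 724 genes or 4.57% lower). That split was 358 and 990 with upper quartile scaling and 876 and 600 with library size alone. The 5 were Gabarapl1, Atg9a, Atg2b, Atg2a and Atg13. No member was lower at an unadjusted p under 0.05 either, and DESeq2 and limma-voom called 0 lower. An unadjusted p under 0.05 was found with upper quartile scaling for 6 members with higher and 2 with lower levels, and with library size alone for 19, all with higher levels. At an unadjusted p under 0.05, 11 members (29.7%) differed and all were higher, beside 23.9% of all tested genes in either direction and 11.3% that were higher. The median log2 fold change was 0.13 over the members and 0.01 over all tested genes. The sign was positive for 25 of 37 members (67.6%, beside 51.2% of all tested genes), and for 23 with upper quartile scaling and 34 with library size alone. Except for Gabarapl1, the differences were small, since no other member reached a 2-fold difference.

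**Figure D1:**
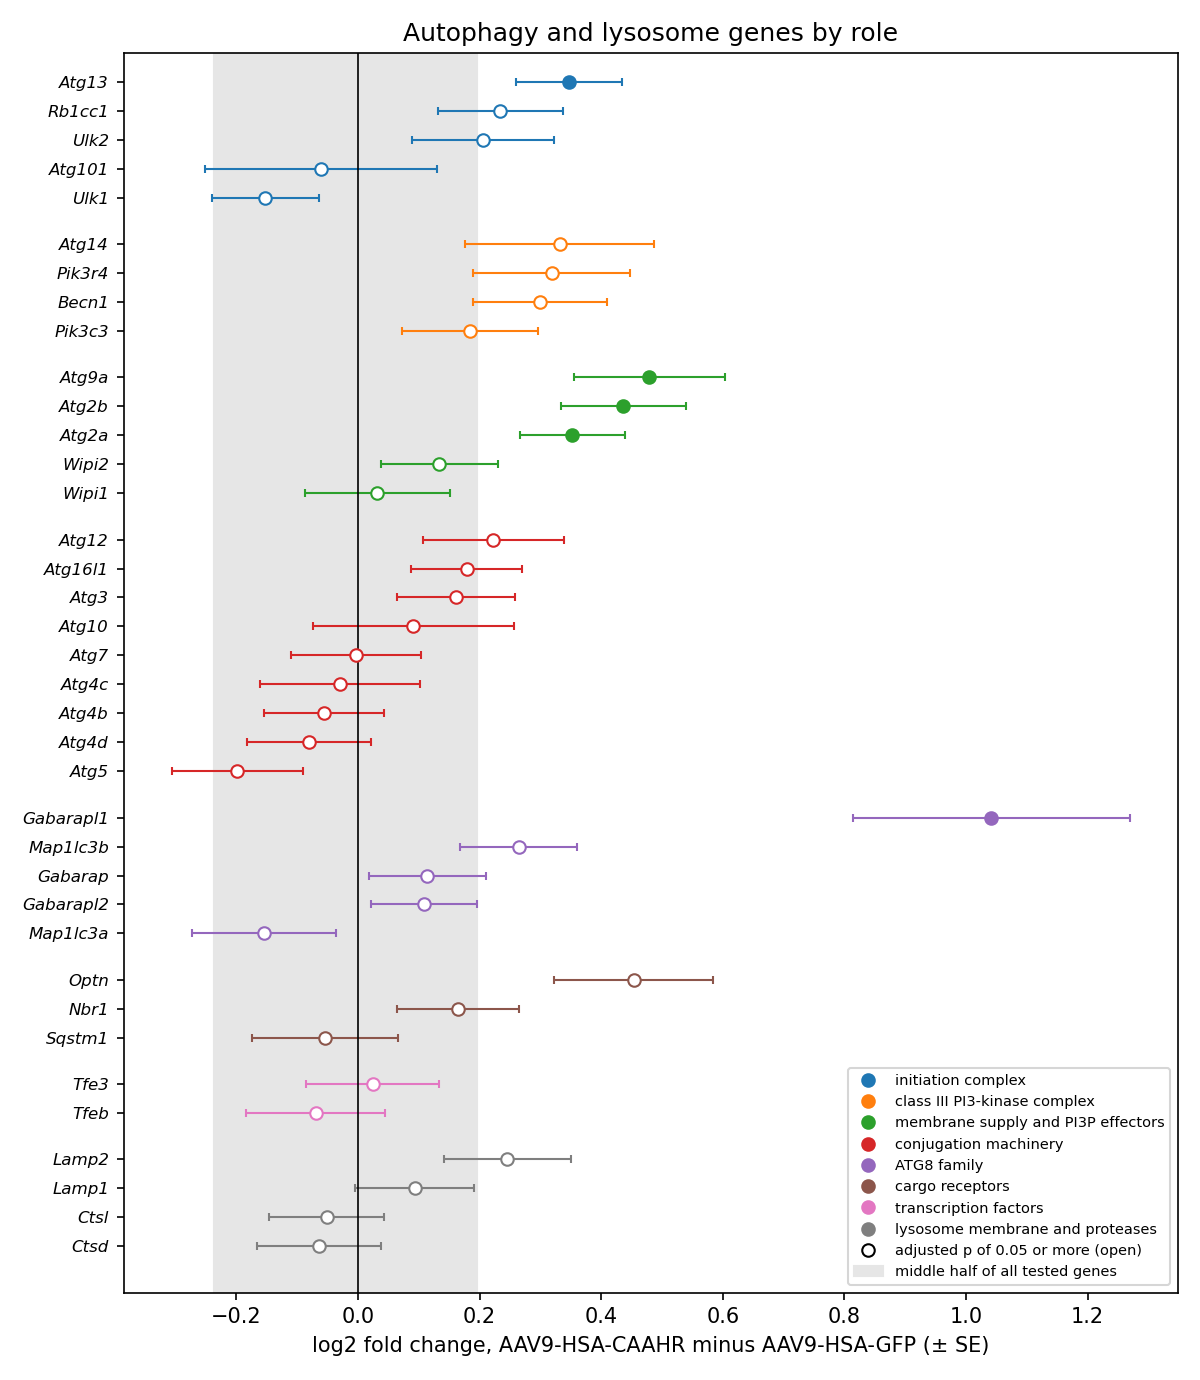
Log2 fold change (CAAHR minus GFP, ± SE, 3 libraries per group) of each of the 37 members, grouped by role; filled points have an adjusted p under 0.05 and the grey band runs from the lower to the upper quartile of all tested genes (-0.24 and 0.20). The 5 filled points all lie to the right of the band, 3 of them in the membrane supply group, and Gabarapl1 stands apart at 1.04.

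Levels in the 2 groups did not overlap for 17 members (45.9%, beside 29.9% of all tested genes), of which 15 were higher and 2 lower in CAAHR muscles. Beside the 5 called, the higher ones were Rb1cc1, Becn1, Atg12, Atg16l1, Map1lc3b, Gabarapl2, Nbr1, Optn, Lamp1 and Lamp2, and the lower ones were Ulk1 and Atg5. Of the 3 CAAHR libraries, library 31 was the lowest for 17 members and the highest for 7. Library 34 was the lowest for 14 and the highest for 13, and library 36 the lowest for 6 and the highest for 17. The part of fibre makeup in these orders was not tested.

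**Figure D2:**
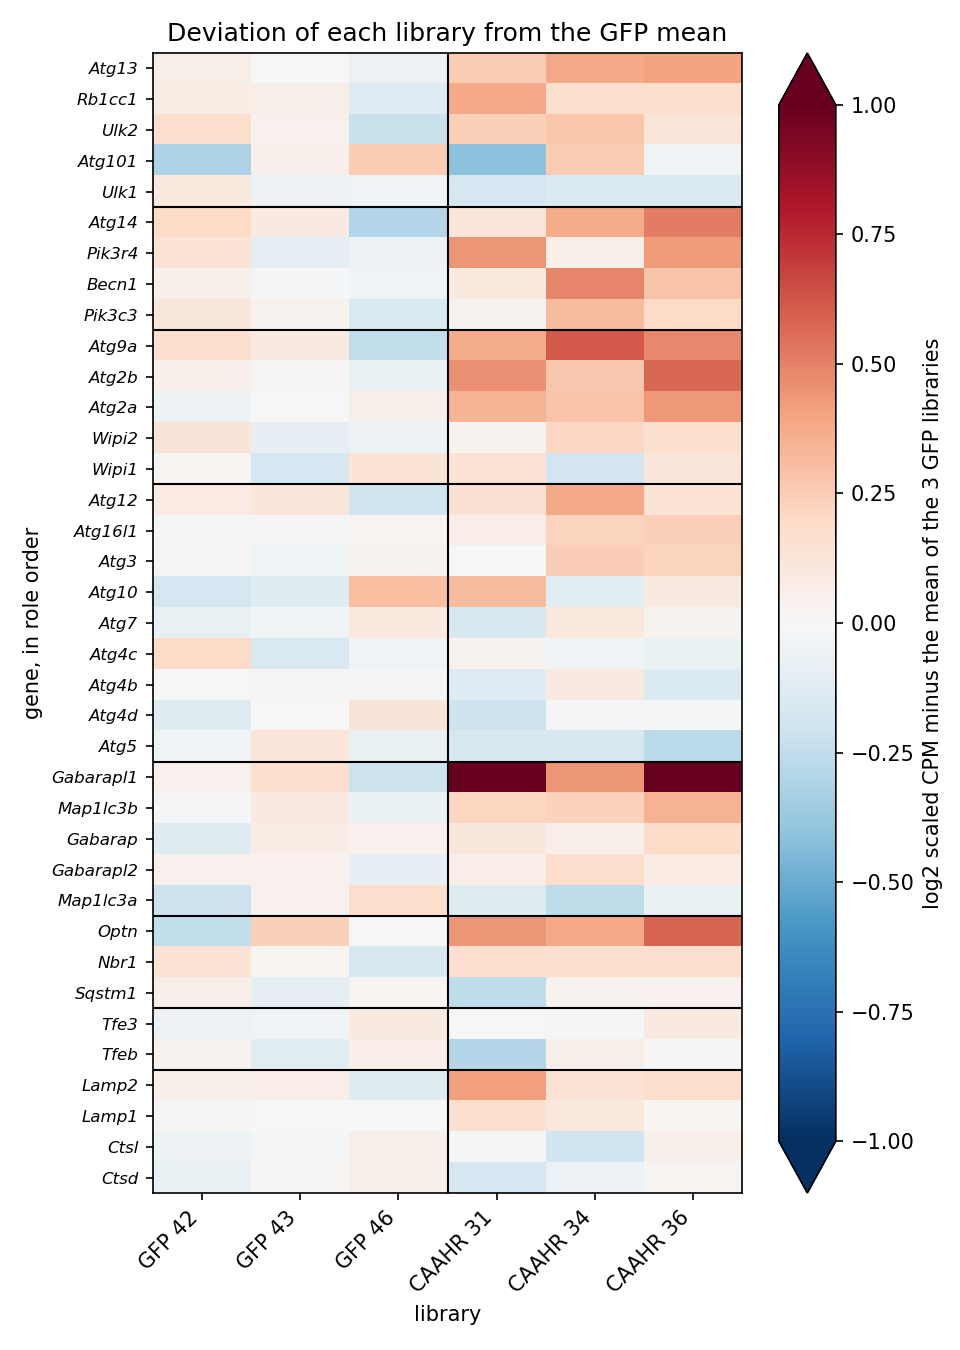
Log2 scaled CPM of each member (rows, in role order) in each of the 6 libraries (columns), minus the mean of the 3 GFP libraries; the colour scale ends at -1 and 1. Gabarapl1 is the darkest row in CAAHR libraries 31 and 36 and paler in 34, while Atg2a, Atg2b, Atg9a and Atg13 are red in all 3 CAAHR libraries.

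The proteins that supply and tether membrane had 3 of 5 members called, beside 7.6% of all tested genes. The count was 2 of 5 with limma-voom, with edgeR without robust estimation and with the stricter filter, and 0 with upper quartile scaling. It was also 0 when any library but CAAHR 34 was left out, although 3 had an unadjusted p under 0.05 in each of these fits. Atg9a, a scramblase carried on vesicles that seed the autophagosome (chromosome 1, 75180860 to 75192196, GRCm38, minus strand), was at 98.4, 116.2 and 106.3 CPM in CAAHR libraries 31, 34 and 36 and at 85.1, 80.9 and 64.1 CPM in GFP libraries 42, 43 and 46. Every CAAHR library was above every GFP library. It rose by a log2 fold change of 0.48 ± 0.12 (SE, adjusted p = 0.0469), the highest adjusted p of the 5, and was called in 4 of 14 other fits.

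Atg2a and Atg2b encode lipid transfer proteins that bridge the endoplasmic reticulum and the growing membrane, and both rose. Atg2b (chromosome 12, 105616136 to 105685211, minus strand) was at 32.0, 28.1 and 34.6 CPM in CAAHR libraries 31, 34 and 36 and at 24.2, 23.5 and 22.3 CPM in the GFP libraries, a log2 fold change of 0.44 ± 0.10 (adjusted p = 0.0321). Atg2a (chromosome 19, 6241668 to 6262335, plus strand) was at 39.7, 38.4 and 42.4 CPM against 30.4, 31.3 and 32.7 CPM, a log2 fold change of 0.35 ± 0.09 (adjusted p = 0.0390). For both paralogs the 2 groups lay apart, with library 34 the lowest CAAHR library. Per kilobase of annotated exon, Atg2a was at a higher level than Atg2b in GFP muscles (4.09 and 1.73 CPM per kilobase).

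Wipi1 and Wipi2, which bind the lipid made by the class III kinase and recruit later factors, did not pass the test. Their log2 fold changes were 0.03 ± 0.12 for Wipi1 and 0.13 ± 0.10 for Wipi2, and the libraries of the 2 groups overlapped for both.

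In the initiation complex, 1 of 5 members was called. Atg13, the subunit that links the kinase to its scaffold (chromosome 2, 91674618 to 91710576, minus strand), was at 56.1, 61.1 and 62.1 CPM in CAAHR libraries 31, 34 and 36 and at 48.9, 47.0 and 45.1 CPM in the GFP libraries. It rose by a log2 fold change of 0.35 ± 0.09 (adjusted p = 0.0433) with no overlap. The 2 kinases went opposite ways without either passing the test. Ulk1, the kinase that starts autophagy on starvation, was at 79.2, 80.3 and 80.6 CPM in CAAHR and 94.9, 85.7 and 86.3 CPM in GFP muscles, a log2 fold change of -0.15 ± 0.09 (adjusted p = 0.334). Its relative Ulk2 was at 126 to 140 CPM against 98.9 to 130 CPM (log2 fold change 0.21 ± 0.12, adjusted p = 0.328). The scaffold gene Rb1cc1 (0.23 ± 0.10, adjusted p = 0.202) did not overlap between groups, and Atg101, which stabilises Atg13, had the widest error of the complex (-0.06 ± 0.19).

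The class III PI3-kinase complex makes the lipid mark on which later factors assemble. The main edgeR fit used TMM scaling, the filter on low counts and all libraries. None of the 4 members of the complex was called in it, by DESeq2 or by limma-voom, although 2 had an unadjusted p under 0.05 in each. In edgeR, Becn1 was called with library size alone (adjusted p = 0.0488) and Pik3r4 without CAAHR library 34 (0.0452), and 0 of the 4 had an unadjusted p under 0.05 with upper quartile scaling. All 4 had a positive log2 fold change, between 0.18 and 0.33, with a median of 0.31. Becn1, the regulatory subunit, was at 59.6, 78.4 and 67.9 CPM in CAAHR libraries 31, 34 and 36 and at 57.7, 55.2 and 54.5 CPM in the GFP libraries (log2 fold change 0.30 ± 0.11, adjusted p = 0.132). The groups lay apart for Becn1 only. Pik3r4, the protein that anchors the kinase, was at 0.32 ± 0.13 (adjusted p = 0.169), Atg14, which directs the complex to autophagosomes, at 0.33 ± 0.16 (0.230), and Pik3c3, the kinase itself, at 0.18 ± 0.11 (0.361).

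The conjugation machinery, which attaches ATG8 proteins to the membrane and releases them again, had 9 members and a median log2 fold change of -0.00. None was called in any fit, and none had an unadjusted p under 0.05 in the main edgeR fit, DESeq2 or limma-voom. In other edgeR fits, an unadjusted p under 0.05 was found for 1 lower member with upper quartile scaling and 3 higher with library size alone. It was found for 1 higher member with no filter on low counts and 2 higher without CAAHR library 31. The highest value was that of Atg12, the ubiquitin-like partner of Atg5 (0.22 ± 0.12, adjusted p = 0.281), and the lowest that of Atg5 itself (-0.20 ± 0.11, adjusted p = 0.299). Atg5 was at 10.3, 10.4 and 9.60 CPM in CAAHR muscles and 11.2, 12.6 and 11.01 CPM in GFP muscles. The 2 partners therefore differed in sign, and both had groups that lay apart. Atg16l1, which gives the conjugate its place on the membrane, was also apart (0.18 ± 0.09, adjusted p = 0.270). The conjugating enzymes Atg3 and Atg10 and the activating enzyme Atg7 were at 0.16, 0.09 and -0.00, and the proteases Atg4b, Atg4c and Atg4d, which trim and recycle ATG8 proteins, lay between -0.08 and -0.03 and turned positive with library size alone as the scale.

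Within the ATG8 family 1 of 5 members was called. Gabarapl1 (chromosome 6, 129533160 to 129542346, plus strand), a GABARAP protein that binds cargo receptors and is used in the fusion of autophagosomes with lysosomes, was at 79.6, 45.5 and 83.1 CPM in CAAHR libraries 31, 34 and 36. In GFP libraries 42, 43 and 46 it was at 34.5, 37.7 and 28.9 CPM. Library 34 lay just above the highest GFP library, and the other CAAHR libraries were at more than 2 times that library. The log2 fold change was 1.04 ± 0.23 (adjusted p = 0.0353), or 69.4 ± 20.8 CPM against 33.7 ± 4.45 CPM (SD, n = 3). Without library 34 it was 1.26 ± 0.12 (adjusted p = 0.000171). Leaving out any one of the other libraries gave 0.89 to 1.13 with adjusted p from 0.0809 to 0.130, with the call lost and the direction kept each time.

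**Figure D3:**
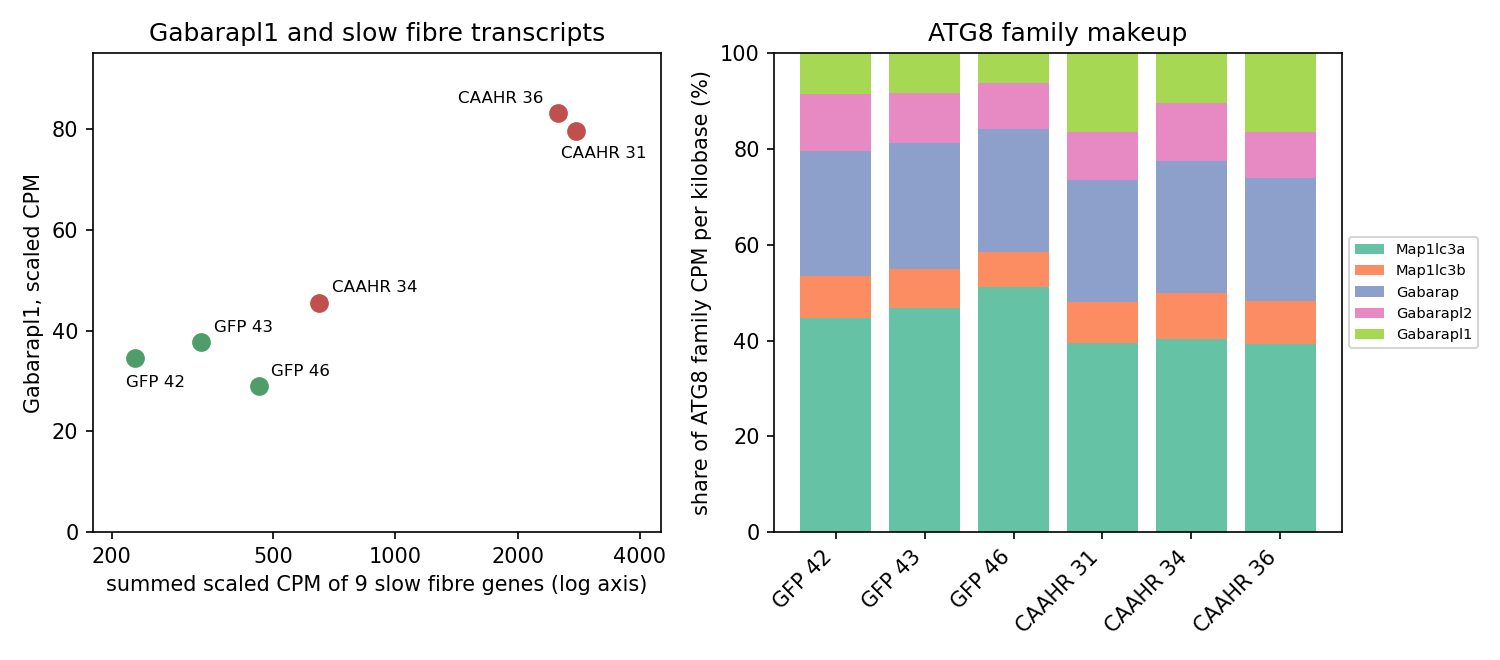
Left, scaled CPM of Gabarapl1 against the summed scaled CPM of 9 slow fibre genes (log axis), one point per library (red CAAHR, green GFP). Libraries 31 and 36 are high on both axes, and library 34, at 45.5 CPM and 649 CPM, lies between them and the GFP libraries; right, each bar splits the ATG8 family of one library by gene in CPM per kilobase, with the Gabarapl1 part larger in the CAAHR libraries.

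The order of the CAAHR libraries in Gabarapl1 followed in part that of slow fibre transcripts, which were also lowest in library 34. The 9 slow fibre genes all had positive log2 fold changes, from 1.81 to 3.44. Levels did not overlap between groups for 7 of 9 (77.8%, beside 29.9% of all tested genes). Only 1 of the 9 was called (11.1%, beside 7.6%), while 8 had an unadjusted p under 0.05 in edgeR (88.9%, beside 23.9%). The part of slow fibre transcripts in the Gabarapl1 difference was not tested.

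The other ATG8 genes moved less. Map1lc3b, which encodes LC3B, was at 153, 155 and 168 CPM in CAAHR muscles and 130, 140 and 126 CPM in GFP muscles, with no overlap and a log2 fold change of 0.26 ± 0.10 that did not pass the test (adjusted p = 0.128). Gabarapl2 (0.11 ± 0.09, adjusted p = 0.495) lay apart by about 1 CPM, with 55.9 to 60.1 CPM against 50.3 to 54.8 CPM. Gabarap was at 0.11 ± 0.10 and overlapped. Map1lc3a, which encodes LC3A and had the highest level per length in the family, was the only one with a negative value (-0.15 ± 0.12, adjusted p = 0.476). Taken as shares of the family in CPM per kilobase of exon, Gabarapl1 made up 16.5%, 10.5% and 16.4% in CAAHR libraries 31, 34 and 36 and 8.61%, 8.24% and 6.31% in the GFP libraries. Map1lc3a made up 39.3% to 40.4% and 44.7% to 51.2%. The shares use the length of all annotated exons of a gene, so a long exon that muscle does not use lowers a gene's share, as could apply to Map1lc3b with 7517 bases.

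None of the 3 cargo receptor genes was called in the main edgeR fit, where 1 had an unadjusted p under 0.05 (33.3%, beside 23.9% of all tested genes). Optn, a receptor for ubiquitin-tagged mitochondria, was at 149, 142 and 164 CPM in CAAHR muscles and 92.6, 130 and 110 CPM in GFP muscles. Its groups lay apart, and its log2 fold change of 0.45 ± 0.13 was as large as those of called members but had an adjusted p of 0.0651. Optn was called in 4 of 14 other fits, by DESeq2 (adjusted p = 0.0220) and by edgeR with library size alone (0.0341), with no filter on low counts (0.00169) and without GFP library 43 (0.0452), and was not called by limma-voom. Sqstm1 encodes p62, a receptor that is itself consumed by autophagy, and had the highest level per length of the 37 members in GFP muscles (205 CPM per kilobase). It was at 575, 702 and 707 CPM in CAAHR libraries 31, 34 and 36 and at 714, 646 and 700 CPM in the GFP libraries, with a log2 fold change of -0.05 ± 0.12 (adjusted p = 0.839). CAAHR library 31 alone was below the GFP range, and the sign turned without it and with library size alone (0.03 each). Nbr1, a relative of p62, lay apart at 100.02 to 100.99 CPM against 80.1 to 98.3 CPM (0.16 ± 0.10, adjusted p = 0.3595).

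**Figure D4:**
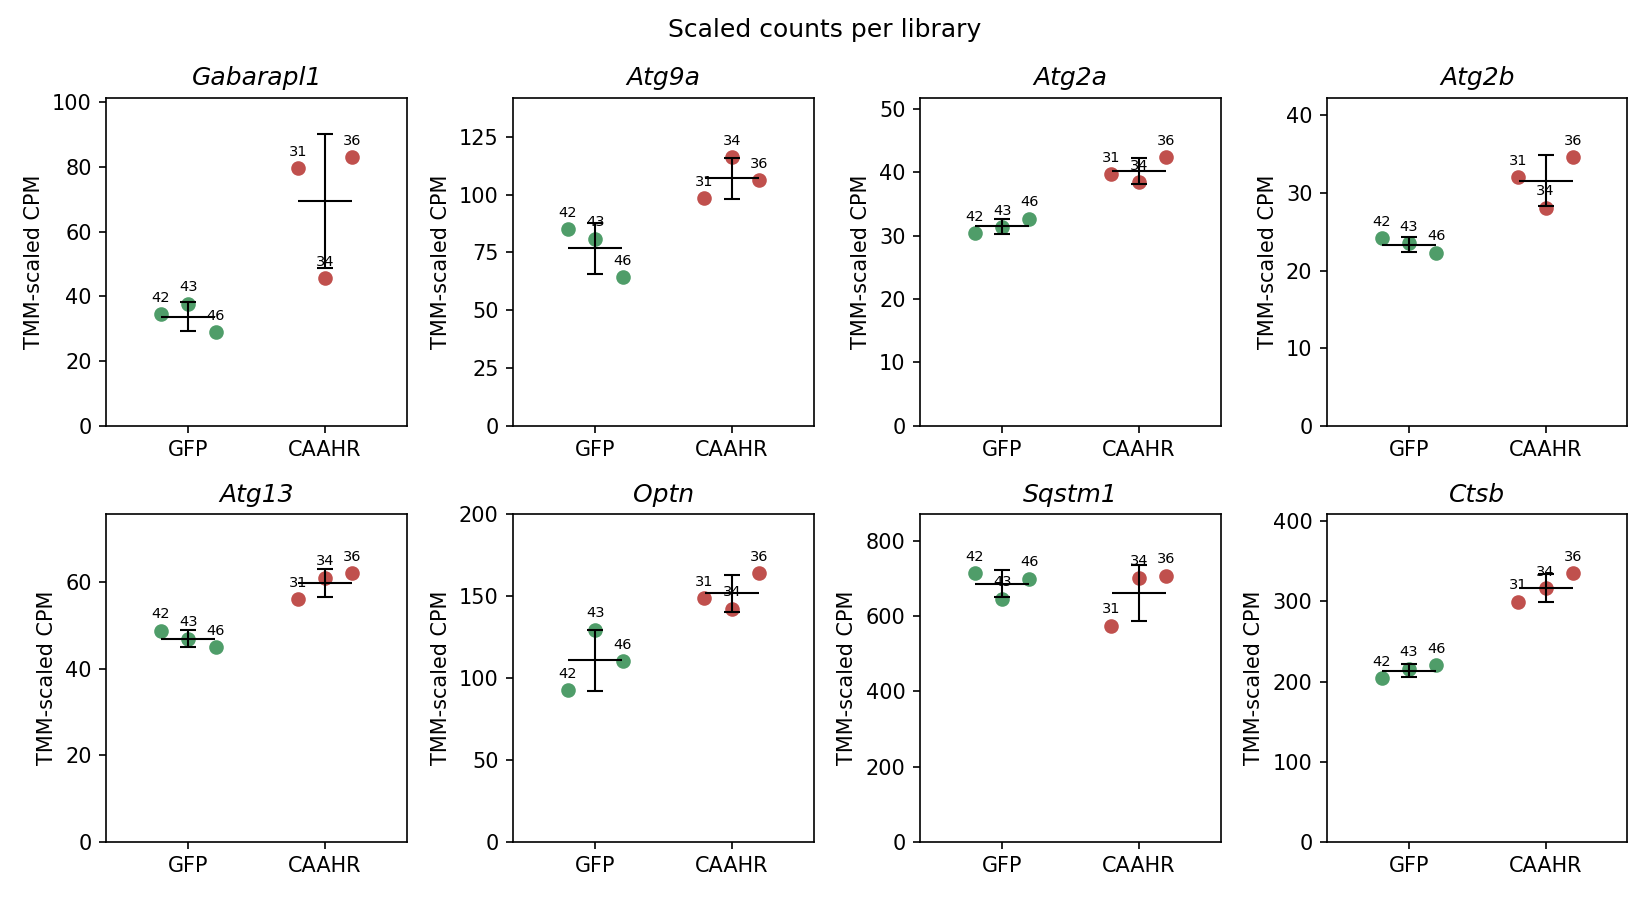
Scaled CPM (from 0) of the 5 called members, of Optn and Sqstm1, and of Ctsb from the wider pathway; points are libraries with their numbers, and bars give the mean and SD of 3 libraries. The CAAHR points lie above the GFP points in every panel except Sqstm1, where they overlap, and Ctsb has the narrowest spread relative to its difference.

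The transcription factor genes Tfeb and Tfe3, whose proteins enter the nucleus to switch on lysosomal and autophagy genes, were close to the GFP level. Tfeb was at 79.3, 101 and 98.0 CPM in CAAHR muscles and 99.8, 90.7 and 102 CPM in GFP muscles (log2 fold change -0.07 ± 0.11, or 0.01 with library size alone), and Tfe3 had a value of 0.02 ± 0.11 (-0.05 with upper quartile scaling). No fit called either gene or gave an unadjusted p under 0.05. Transcript counts carry no information on where these proteins were in the cell.

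Of the 4 lysosomal members, none was called by edgeR, DESeq2 or limma-voom. Lamp2, a membrane protein needed for fusion and for chaperone-mediated autophagy, was at 81.0, 67.5 and 68.96 CPM in CAAHR muscles and 63.3, 63.9 and 56.3 CPM in GFP muscles (0.25 ± 0.10, adjusted p = 0.189, unadjusted p = 0.0414). Lamp1, a structural protein of the same membrane whose promoter is printed above, had a log2 fold change of 0.09 ± 0.10, and its groups were separated by about 1 CPM at a level above 400 CPM. The proteases Ctsd (-0.06 ± 0.10) and Ctsl (-0.05 ± 0.09) overlapped, and both values turned positive with library size alone. Ctsd, with 147 CPM per kilobase in GFP muscles, was the third most abundant member per length after Sqstm1 and Lamp1 (152).

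The wider pathway was read from 111 further genes in 4 lists. Of these, 7 rose and none fell at an adjusted p under 0.05 (6.31%, beside 7.6% of all tested genes), and an unadjusted p under 0.05 was found for 30 (27.0%, beside 23.9% of all tested genes), 23 with higher and 7 with lower levels. Positive values were found for 70 of 111 (63.1%, beside 51.2%), with a median of 0.07. DESeq2 called 11, of which 2 were lower, and limma-voom called 7, all higher.

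**Figure D5:**
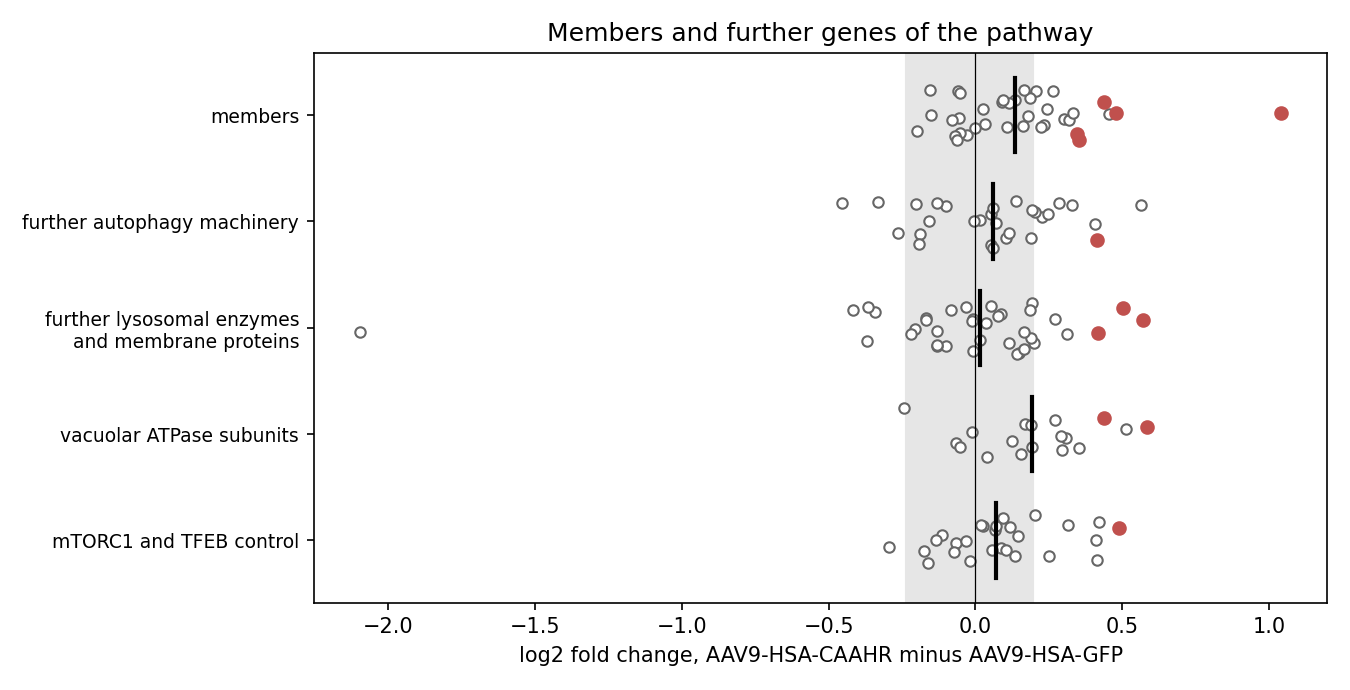
Log2 fold change (CAAHR minus GFP) of the 37 members and of the 111 further genes in 4 lists; each point is a gene, filled red where the adjusted p was under 0.05, black bars are list medians and the grey band runs from the lower to the upper quartile of all tested genes. All 12 red points lie to the right of 0, the vacuolar ATPase list has the highest median (0.19) and one lysosomal gene lies far to the left at -2.10.

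Ctsb was the clearest of these genes. It encodes cathepsin B, a lysosomal cysteine protease, and was at 300, 316 and 335 CPM in CAAHR libraries 31, 34 and 36 and at 204, 216 and 220 CPM in the GFP libraries. It rose by a log2 fold change of 0.57 ± 0.10 (adjusted p = 0.00890) and was called in each of the 14 other fits, which none of the 37 members was. Tpp1, a lysosomal peptidase, rose by 0.42 ± 0.10 (adjusted p = 0.0373), and Slc38a9, an amino acid sensor of the lysosomal membrane, by 0.50 ± 0.12 (0.0339). These were 3 of 37 lysosomal enzymes and membrane proteins (8.11%, beside 7.6%), whose median was 0.02, so that the list as a whole was centred near 0.

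Among 18 subunits of the vacuolar ATPase, the pump that acidifies the lysosome, 2 were called (11.1%, beside 7.6% of all tested genes). Atp6v0a1 was at 116, 163 and 133 CPM in CAAHR muscles and 94.97, 95.2 and 84.1 CPM in GFP muscles (0.59 ± 0.13, adjusted p = 0.0276). Atp6v0a2, its paralog, was at 0.44 ± 0.10 (0.0255). Both belong to the membrane sector through which protons pass. The groups lay apart for 11 of the 18 subunits (61.1%, beside 29.9% of all tested genes), 10 of them higher, and the lower one was Atp6v0e. Catalytic subunit Atp6v1a had a value of -0.05.

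Of 27 genes that control mTORC1 and TFEB, 1 was called (3.7%, beside 7.6% of all tested genes). It was Rptor, the mTORC1 subunit that binds substrates (0.49 ± 0.10, adjusted p = 0.0196). Of 29 further autophagy genes, 1 was called (3.45%, beside 7.6% of all tested genes). It was Calcoco1 (0.41 ± 0.11, adjusted p = 0.0465), a receptor for autophagy of the endoplasmic reticulum.

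The number of members called depended on scaling and on each library. With upper quartile scaling only Gabarapl1 was called, and without one of libraries 31, 36, 42 or 46 no member was, with 6 to 11 members at an unadjusted p under 0.05, all higher. The 5 called members kept a positive sign in all 14 other fits. If counting was not strand-specific, which is not stated, reads of an overlapping neighbour could enter a gene. Gskip shares 383 bases with Atg2b and had 2830 counts over all libraries against 8660 for Atg2b. Fdft1 shares 774 bases with Ctsb and had 19982 counts against 84172. Ankzf1 shares 46 bases with Atg9a (2648 counts against 28959) and 1700101I11Rik 570 bases with Gabarapl1 (113 against 16459). On the same strand, Gm29253 shares 1832 bases with Atg9a and had 28 counts.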

How the data were processed

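Whole-number counts per gene were used as the authors deposited them. Poly(A) RNA had been sequenced as paired ends, trimmed with Trimmomatic 0.36, aligned to GRCm38 with STAR 2.5.2b and counted over exons with featureCounts, with no normalization, and strandedness is not given in the sources used here. For testing, edgeR 4.0.16 was run in R 4.3.3: filterByExpr (minimum count 10) left 15847 genes, libraries were scaled by TMM, and the 2 groups of 3 were compared with the robust quasi-likelihood test. The Benjamini-Hochberg adjustment covered every tested gene, with a threshold of 0.05. Standard errors were derived from the F statistic. The script was tested on simulated data. Positions and exon lengths were from GENCODE M21. In the table, 174 rows without a symbol (0.0154% of counts) were kept as genes. DESeq2 1.42.0 and limma 3.58.1 (voom), other scalings and filters, and leaving out each library were alternatives. Within a group, libraries differed by more than counting noise (the lowest chi-square was 23.75 times its degrees of freedom), so no 2 held the same library, although repeat preparations from one mouse remain possible. All members were named, and of the pathway lists the genes past the threshold. The members and lists were chosen with earlier results of these data known.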

Additional observations from a re-analysis of the deposited data

How the results depend on the processing

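No paired analysis was possible because AAV9-HSA-CAAHR and AAV9-HSA-GFP libraries have no replicate number in common. The count of 5 members became 1 with upper quartile scaling and was 4 to 7 under the other scalings, filters and tests. It was 0 to 4 when one library was left out. The 7 further pathway genes became 14 with library size only, 14 with no filter on low counts and 11 with DESeq2, and were 1 to 11 with one library left out. Over all tested genes, the 1205 calls became 2470 with no filter (1181 shared) and 1923 with DESeq2 (1182 shared), and 530 to 1727 with one library left out. The split of higher and lower calls, 481 and 724, was 358 and 990 with upper quartile scaling and 876 and 600 with library size only, which shifted the median of all genes by -0.07 and 0.08. The cause of these changes was not tested. Uncalled members near 0 changed sign. With upper quartile scaling Wipi1 was at -0.0414 and Tfe3 at -0.0487. With library size only, Atg101 was at 0.0169, Atg4b at 0.024, Atg4c at 0.0516, Atg4d at 0.0005, Atg7 at 0.0771, Sqstm1 at 0.0254, Tfeb at 0.0092, Ctsl at 0.0325 and Ctsd at 0.0176. Atg7 was at 0.0112 with no filter and 0.0076 with limma-voom. With one library left out, values ran from -0.243 to 0.0865 for Atg101, -0.0472 to 0.121 for Wipi1, -0.0677 to 0.0627 for Atg7, -0.0285 to 0.257 for Atg10, -0.111 to 0.0323 for Sqstm1, -0.145 to 0.0267 for Tfeb, -0.113 to 0.009 for Ctsl, -0.0161 to 0.0694 for Tfe3 and -0.101 to 0.0732 for Atg4c. With 3 libraries per group, small differences may go uncalled.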

Other observations

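Further pathway genes with the lowest values were not called in the main comparison, and they are named here after their values were seen. Ctss, a cathepsin of immune cells, was at 2.04, 1.35 and 1.90 CPM in CAAHR libraries 31, 34 and 36 and at 3.77, 13.8 and 5.15 CPM in GFP libraries 42, 43 and 46, with a log2 fold change of -2.10 ± 0.52 (edgeR, adjusted p = 0.0656). Its highest value was in the library with the highest summed macrophage CPM, 129.6 in GFP library 43. Of 10 tested macrophage markers, 1 was called lower, and the log2 fold changes ran from -2.41 to -0.17. Levels did not overlap between groups for 7 of the 10, all lower (70.0%, beside 29.9% of all tested genes in either direction and 14.9% lower). None of the 11 markers measured was at 0 counts in any library. Their part in the Ctss difference was not tested. Uvrag, a partner of Becn1 in endosome and autophagosome maturation, was at 12.6, 11.3 and 13.0 CPM against 19.5, 16.2 and 14.99 CPM, a log2 fold change of -0.45 ± 0.12 (adjusted p = 0.0533). DESeq2 called both genes lower.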
